A study of Mus musculus with 8 samples.

Results

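The expression of 10 genes that mark cardiac chambers, non-chamber myocardium and cardiac progenitors was measured in 8 single myocardial cells of the mouse heart tube. The genes were Nppa, Nppb, Irx4, Hey2, Cited2, Smyd1, Isl1, Tbx2, Tbx3 and Myocd, and they were taken by an exact match of the gene name on the array, with every non-control probe of that name. They had 12 of the 55681 probes and made up 10 of the 24327 named genes. There was 1 probe for 8 of the genes and 2 probes each for Cited2 and Smyd1. Each cell came from an embryo at embryonic day 8.5 with 9 somites, and its amplified cDNA was hybridised to a one-colour array of its own. The 4 wild-type (WT) cells were Mesp1+/+ and Sox17flox/flox, and the 4 mutant (KO) cells were Mesp1Cre/+ and Sox17flox/flox, so that both genotypes carried homozygous floxed Sox17 alleles and differed in the Mesp1-Cre allele. Mesp1-Cre is a knock-in that is active in early mesoderm, hence the mutant cells also lacked 1 intact Mesp1 allele. The comparison addresses the effect of mesodermal Sox17 deletion on myocardial cells. The methods place the cells in the ventricle and the labels in the heart tube. Embryos were genotyped from the tail, and cells were typed by PCR of marker genes.

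No label tied a cell to an embryo or litter. The cells of a genotype were thus taken as 1 sample. No test was made, and each SD is the spread between 4 cells rather than an error of the genotype mean. The genotypes were hybridised on separate slides, 1 for each, and an effect of the slide cannot be told apart from that of the genotype. The share of probes well above background was 19.6% to 26.0% in WT and 17.1% to 24.3% in KO cells, and it was lowest in KO cells 2 and 3. Of 12 myocardial markers, 11 to 12 were detected in each cell of either genotype, with a summed signal of 617217 to 1.09334e+06 in WT and 805092 to 1.17844e+06 in KO cells. Of 14 endothelial markers, WT cells had 3 to 4 detected and KO cells 2 to 3, with summed signals of 1175 to 4959 and 1098 to 2531, and 8 were detected in 0 cells, among them Cdh5, Tek, Emcn and Nfatc1. Kdr was detected in all 8 cells, at 525 to 693 in WT and 443 to 666 in KO cells. Plvap was detected in all 8 cells at signals of up to 99.3, and Pecam1 in 4 WT and 2 KO cells at the floor. Egfl7 was detected in 1 WT and 1 KO cell, at 3666 in WT cell 3 and 1273 in KO cell 2. Neither the 2 Sox17 probes nor the Mesp1 probe was detected in any cell, so the deletion could not be checked on these arrays.

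In the linear heart tube, the working myocardium of the future chambers is set apart from slower non-chamber myocardium, while progenitors continue to be added at the poles. Nppa and Nppb encode the natriuretic peptides ANF and BNP and mark chamber myocardium. Irx4 and Hey2 encode transcription factors of ventricular myocardium. Cited2 encodes a coactivator that binds CBP and p300, Smyd1 a muscle-restricted histone methyltransferase, and Myocd the SRF coactivator myocardin. Isl1 marks progenitors of the second heart field, whereas Tbx2 and Tbx3 encode T-box repressors of the chamber program in the atrioventricular canal and conduction system.

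The 10 genes fell into those detected in every cell, those detected in some cells and those detected in none. Here a detected probe is one with a signal well above background in a cell, and a present probe is one detected in every cell of 1 or both genotypes. Nppa and Smyd1 were detected in all 8 cells, Irx4, Cited2, Nppb and Hey2 in some of them, and Myocd, Isl1, Tbx2 and Tbx3 in 0 cells. For comparison, 9.52% of all probes were detected in all cells and 56.2% in none. Of the 12 probes, 5 were present, and 3 of these 5, those of Irx4 and Cited2, were lower in KO cells by 5-fold or more, the size rule of the methods (2.32 in log2 units). The same was seen for 6.88% of the 7467 present probes of the array. The 3 probes were detected in every WT cell but not in every KO cell, so they were present only through WT, where they were high. Most present probes were detected in all cells, and of these 5301 probes 90 were lower by the rule. None of the 5 was higher by at least 5-fold, against 1.75% of present probes. Counted by gene, with the brightest probe of each, 2 of 4 present members were lower and 0 higher, against 10.8% and 2.69% of the 3379 present genes. In numbers, 514 present probes were lower and 131 higher, and under quantile normalization 404 and 190. The study named Irx4 and Cited2 as lower on these same arrays, so their counts are not independent evidence. For 0 of the 5 present probes were the WT and KO cells without overlap, compared with 5.53% of all present probes. The median difference over the 10 genes was 0 on the log2 scale, with 3 genes below 0, 3 above and 4 at 0, and it was 0 over all named genes too. With KO cells 2 and 3 left out, 0 member probes were lower by 5-fold and 1, that of Nppb, was higher. Nppb was present in that setting only through the remaining KO cells, the group where it was high. Of the 9228 probes then present, 575 were lower and 559 higher.

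**Figure D1:**
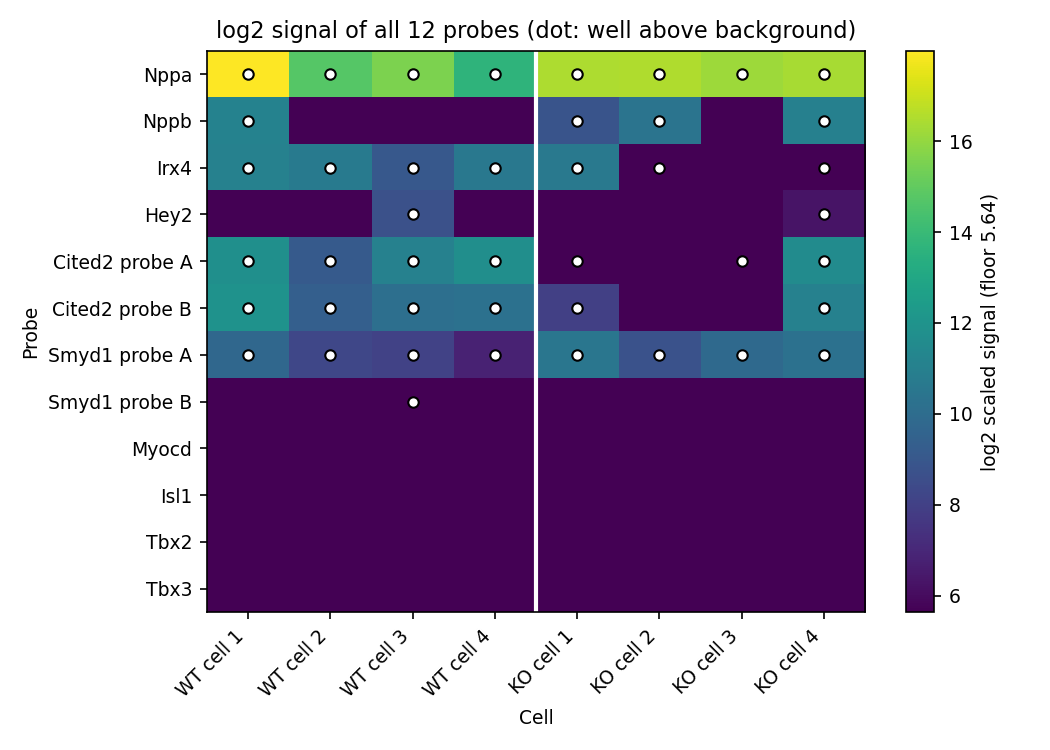
The log2 scaled signal (colour) of all 12 probes (rows) in each cell (columns), with WT cells left and KO cells right of the white line and a dot where a probe was well above background. Nppa and Smyd1 probe A have dots in all 8 cells, and the probes of Myocd, Isl1, Tbx2 and Tbx3 in 0 cells. Colours are to be compared within a row, since probes differ in their response.

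Nppa was detected in every cell of both genotypes, and its signal varied more between WT than between KO cells. Its probe, at chr4:147376024-147376083 (mm9), is printed on 10 spots of the array. The first 30 bases of the probe and the 250 bases before the start of the gene (RefSeq, GRCm38.p6, chr4:148000472-148000721, plus strand) are given, since the latter hold most of the cardiac motifs searched. Capitals in the promoter mark the T-box half-site, NKX2-5 core, GATA site and TATA box, in the order in which they first occur and on either strand.
Nppa probe, first 30 bases: cttcctgccttcatctatcacgatcgatgt
Nppa promoter: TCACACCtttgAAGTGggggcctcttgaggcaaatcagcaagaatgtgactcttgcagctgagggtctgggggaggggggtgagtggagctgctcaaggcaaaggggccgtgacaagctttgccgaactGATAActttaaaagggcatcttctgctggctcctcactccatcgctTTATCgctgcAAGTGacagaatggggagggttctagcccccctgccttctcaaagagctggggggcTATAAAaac

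The scaled signal of Nppa was 259325, 27538, 48205 and 13175 in WT cells 1 to 4. It was 91904, 92229, 73586 and 84200.5 in KO cells 1 to 4. WT cell 1 lay above all KO cells and the other WT cells below all of them, so the groups overlapped. This order depended on the scaling. As deposited, WT cell 3 read 78391, above KO cells 2, 3 and 4 at 57547.5, 55993 and 70888. The mean log2 signal was 15.49 ± 1.83 in the WT and 16.38 ± 0.15 in the KO cells (SD, n = 4 each). The difference of 0.88, or 1.84-fold, was smaller than the SD of the WT cells. It was 0.73 beyond the median difference of 0.15 of the probes detected in all cells, and was 0.28 when WT cell 4 was left out and 1.71 when WT cell 1 was. The highest WT cell exceeded the lowest by 19.7-fold, whereas the KO cells lay within 1.25-fold of each other. Replicate spots of an array had an SD of 0.038 to 0.065 on the log2 scale, well below the spread between WT cells. Of the 3104 probes that were above the floor and detected in all cells, 1.64% had a KO SD as small as that of Nppa and 6.25% a WT SD as large. The small KO spread depended on the scaling. Without scaling the KO SD was 0.69 and the KO cells lay within 2.77-fold, and under quantile normalization the SD was 0.44. In each of these settings the SD of the WT cells was larger, at 1.73 and 1.15.

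Nppb was detected in 1 WT and 3 KO cells. Its gene neighbours Nppa, with the 2 probes 15.5 kb apart on chromosome 4. The probe lies at chr4:147360489-147360548 (mm9), and the promoter at chr4:147985650-147985899 (GRCm38.p6, plus strand). Capitals in the promoter mark a TEAD site, GATA sites and the TATA box. The probe has no capitals.
Nppb probe: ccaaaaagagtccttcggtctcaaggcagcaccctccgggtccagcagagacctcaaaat
Nppb promoter: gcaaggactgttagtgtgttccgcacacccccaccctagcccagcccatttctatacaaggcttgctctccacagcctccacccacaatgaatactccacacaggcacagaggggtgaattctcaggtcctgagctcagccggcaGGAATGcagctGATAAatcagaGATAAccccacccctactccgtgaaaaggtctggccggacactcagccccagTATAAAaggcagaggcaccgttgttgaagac

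The scaled signal of Nppb was 2251 in WT cell 1 and at the floor of 50 in the other WT cells. It was 465 in KO cell 1, 1363 in KO cell 2 and 2077 in KO cell 4, and at the floor in KO cell 3. The groups overlapped, with the highest value of all in a WT cell. The mean log2 signal was 7.02 ± 2.75 in the WT and 8.98 ± 2.41 in the KO cells (SD, n = 4 each), a difference of 1.97 that was smaller than either SD. It was 1.29 when KO cell 4 was left out and 3.34 when WT cell 1 was. WT cell 1, the WT cell with the highest Nppa signal, was the WT cell in which Nppb was detected. Over the 8 cells, Nppa and Nppb had a Pearson r of 0.76 and a Spearman rho of 0.86, with 4 values of Nppb at the floor. This is a description of cells that share slides and scaling.

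Of 6 receptors and enzymes of the natriuretic peptides, 3 were detected in 0 cells, beside 56.2% of all probes of the array. These were Npr3, Npr1, the receptor of both peptides, and Corin, the protease that activates the ANF precursor. The ligand Nppc, the C-type peptide, was detected in 0 cells as well. Npr2, the receptor of the C-type peptide, was detected in all cells, with a difference of 0.81 (log2 8.92 ± 0.84 in WT and 9.73 ± 0.55 in KO cells). Furin, a proprotein convertase that cleaves the BNP precursor, was at 3422, 373, 888 and 278 in WT cells 1 to 4 and was detected in 0 KO cells. All WT cells were above all KO cells, and the mean was at least 14.98-fold lower in KO cells. Of the 7 listed genes, Nppc included, 2 were present, of which 1 was below the size rule and 0 were above it. Furin was present only through WT, where it was high. Over all present probes, 5.53% were without overlap in either direction, 3.27% were without overlap and higher in KO cells, and 6.88% were lower by the rule.

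**Figure D2:**
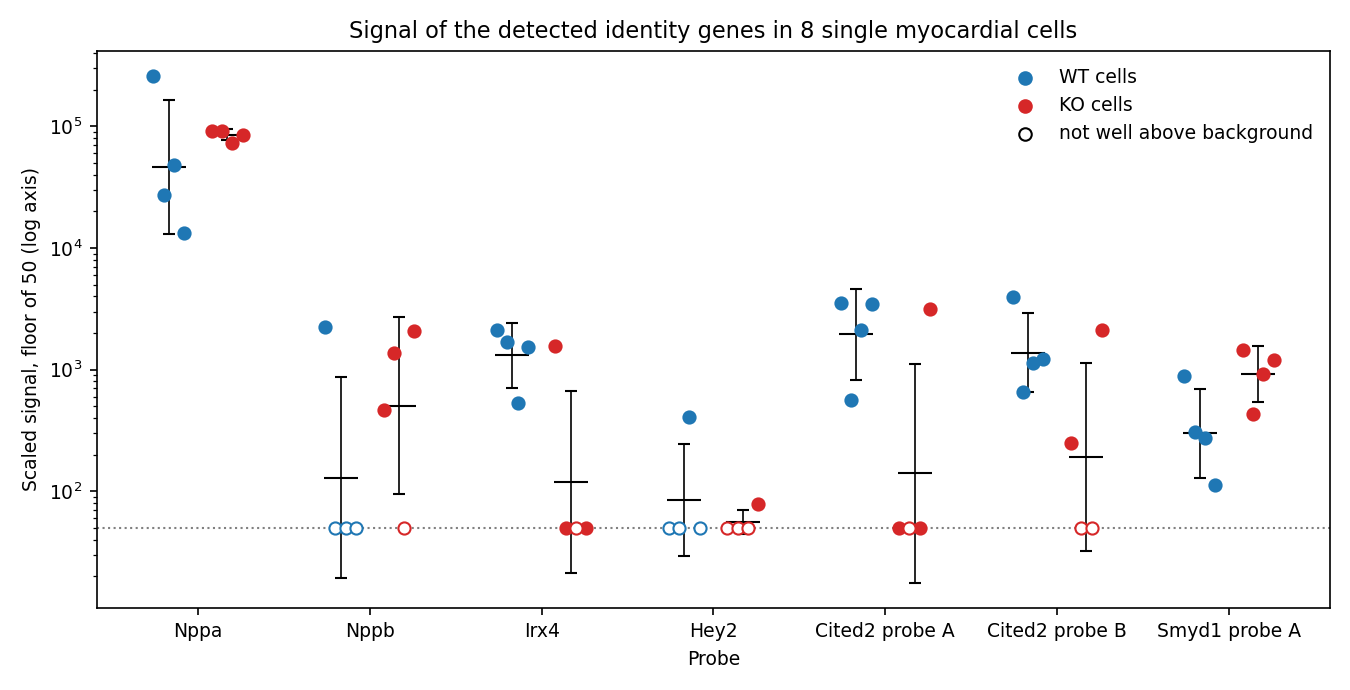
Scaled signal on a log axis for the 7 probes with a signal above the floor in at least 1 cell (filled, well above background; open, not), with WT cells in blue and KO cells in red. Black bars are the mean and SD of the log2 signal, n = 4 cells each, and the dotted line is the floor of 50. KO cells lie close together for Nppa, and for Irx4 and Cited2 probe A all but 1 KO cell lie at the floor.

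Irx4 was lower in 3 of 4 KO cells than in any WT cell. Its probe lies at chr13:73406712-73406771 (mm9). The promoter, at chr13:73260247-73260496 (GRCm38.p6, plus strand), is shown because it held none of the motifs searched and so has no capitals.
Irx4 probe, first 30 bases: aagatgagaagaccggagagcacagccgat
Irx4 promoter: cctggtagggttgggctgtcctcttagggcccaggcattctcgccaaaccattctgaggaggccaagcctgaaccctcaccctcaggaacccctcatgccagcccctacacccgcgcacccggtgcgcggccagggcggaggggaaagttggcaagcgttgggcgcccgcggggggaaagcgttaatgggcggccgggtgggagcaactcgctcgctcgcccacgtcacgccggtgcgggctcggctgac

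The scaled signal of Irx4 was 2125, 1675, 533 and 1544 in WT cells 1 to 4. It was 1575 in KO cell 1. It was at the floor in KO cells 2, 3 and 4, although the spot remained well above background in KO cells 2 and 4, at scaled signals of 17.1 and 13.3. KO cell 1 therefore lay within the range of the WT cells, and the other KO cells lay at least 10.65-fold below the lowest WT cell with the floor as their value. The mean log2 signal was 10.35 ± 0.89 in the WT and 6.89 ± 2.49 in the KO cells (SD, n = 4 each), a difference of -3.46, or 11.04-fold, with the floor in it. Leaving out 1 cell at a time gave -4.71 (without KO cell 1) to -3.05. Without KO cells 2 and 3, which had the fewest probes detected, the difference was -2.22 and no longer reached 5-fold. Of the 4048 probes that were above the floor and detected in all WT cells, 5.29% were at the floor in at least 3 KO cells, and 0.618% had the same pattern as Irx4, with KO cell 1 alone above it. A probe of this set was at the floor in KO cells 1 to 4 in 12.4%, 12.2%, 10.4% and 7.07% of cases. The pattern with KO cell 1 alone above the floor was read from Irx4 itself. Its share of 0.618% therefore does not measure how unusual Irx4 was.

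Hey2, encoded on the minus strand with its probe at chr10:30552729-30552788 (mm9), was detected in 1 cell of each genotype. Its signal was 410 in WT cell 3 and 78.4 in KO cell 4, and at the floor in the other cells. The mean log2 signal was 6.40 ± 1.52 in the WT and 5.81 ± 0.32 in the KO cells (SD, n = 4 each). The difference of -0.60 was smaller than the WT SD, and it was 0.16 without WT cell 3.

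Of 20 other chamber genes, 3 were present and 7 were detected in 0 cells. Of the 3 present, 0 were lower or higher by 5-fold. Myl7, a myosin light chain of the heart tube and later of the atria, was at 25941, 21121, 20543 and 9916 in WT cells 1 to 4. It was at 28530, 36741, 45586 and 46392 in KO cells. The groups did not overlap, as was the case with higher KO cells for 3.27% of present probes, and the difference was 1.08 on the log2 scale. The lack of overlap depended on the scaling. It had shifted WT cell 3 by -0.70 and KO cell 2 by 0.68 on the log2 scale, and before these shifts WT cell 3 lay above KO cell 2. Myl2, the ventricular light chain, was detected in all cells and differed by 0.50 (15.49 ± 0.60 in WT and 15.99 ± 0.93 in KO cells), less than the KO SD. Among the relatives of Irx4, named here after their values were seen, Irx3 was detected in 3 WT and 0 KO cells. Irx2 was detected in 3 WT and 1 KO cells, and Irx1 in 1 cell of each genotype. Irx3 was above the floor in WT cells 2 and 3 alone, at 676 and 805, and Irx2 in WT cells 1 and 4 alone, at 451 and 379. Irx5 and Irx6 were detected in 0 cells. Hand1 and Hand2 of the same list were higher in KO cells, by 1.55 and 3.04, and both were brightest in KO cell 1. The difference of Hand2 was past 5-fold in size. None of these genes was present. Of 14 genes of NOTCH signaling, which acts upstream of Hey2, and of neuregulin signaling, 1 was present and 0 passed the size rule. The present gene, Notch1, was above the floor in KO cell 1 alone, at 6982. Jag1 differed by -2.65, past 5-fold in size, but was detected in 3 WT and 1 KO cells and so was not present.

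Cited2 was measured by 2 probes that lie 188 bases apart on chromosome 10 and gave the same order of genotypes. Probe A, at chr10:17444502-17444561 (mm9), ends in a stop codon (capitals), and probe B, at chr10:17444690-17444749, lies downstream of it. The promoter, at chr10:17722978-17723227 (GRCm38.p6, plus strand), has an NKX2-5 core on the minus strand and an E-box in capitals.
Cited2 probe A: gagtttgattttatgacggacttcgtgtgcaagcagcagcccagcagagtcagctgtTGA
Cited2 probe B, first 30 bases: gatcctgaaagggttgagaacctggaaaca
Cited2 promoter: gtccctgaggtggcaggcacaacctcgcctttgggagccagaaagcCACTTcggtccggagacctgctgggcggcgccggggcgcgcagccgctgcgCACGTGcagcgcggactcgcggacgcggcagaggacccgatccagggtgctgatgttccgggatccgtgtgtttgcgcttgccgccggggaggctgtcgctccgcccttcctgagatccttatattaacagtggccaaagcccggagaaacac

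With probe A, the scaled signal of Cited2 was 3562, 565, 2117 and 3449 in WT cells 1 to 4. It was 3149 in KO cell 4 and at the floor in KO cells 1 to 3, of which cells 1 and 3 were well above background at scaled signals of 9.97 and 18.9. KO cell 4 lay among the WT cells, and the other KO cells lay at least 11.29-fold below the lowest WT cell with the floor as their value. The mean log2 signal was 10.94 ± 1.24 in the WT and 7.14 ± 2.99 in the KO cells (SD, n = 4 each). The difference was -3.80, or 13.9-fold. With probe B, the signal was 3928, 659, 1131 and 1223 in WT cells, 249 in KO cell 1, 2114 in KO cell 4 and at the floor in KO cells 2 and 3. The 2 probes thus differed in KO cell 1, which was above the floor with probe B and below it with probe A. The difference with probe B was -2.85, or 7.22-fold (10.43 ± 1.08 in WT and 7.57 ± 2.56 in KO cells). The probes had a Pearson r of 0.93 over the 8 cells, and as they read the same cDNA they are not separate evidence.

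The difference of Cited2, with probe A, was -4.39 to -2.91 when 1 cell was left out, at its smallest without WT cell 4. Without KO cells 2 and 3 it was -2.30 and just under 5-fold. KO cells 2 and 3 were the cells at the floor with both Cited2 probes and also at the floor for Irx4. Of the 4048 probes that were above the floor and detected in all WT cells, 5.31% were at the floor in both of these cells. The part of the low detection in KO cells 2 and 3 in these differences was not tested beyond leaving the cells out.

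Among 8 partners and relatives of Cited2, 2 were present. Cited1, which encodes a related coactivator, was lower by 5.10 on the log2 scale. Its signal was 4437, 3560 and 11226 in WT cells 1, 2 and 4 and at the floor in WT cell 3, and in KO cells it did not exceed 51.2. Crebbp, which encodes the CBP that Cited2 binds, was detected in all cells and differed by 0.07 (8.05 ± 1.44 in WT and 8.11 ± 1.83 in KO cells). Of the list, 1 gene was lower by 5-fold and 0 were higher. This gene, Cited1, was detected in 4 WT and 3 KO cells and so was present only through WT.

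**Figure D3:**
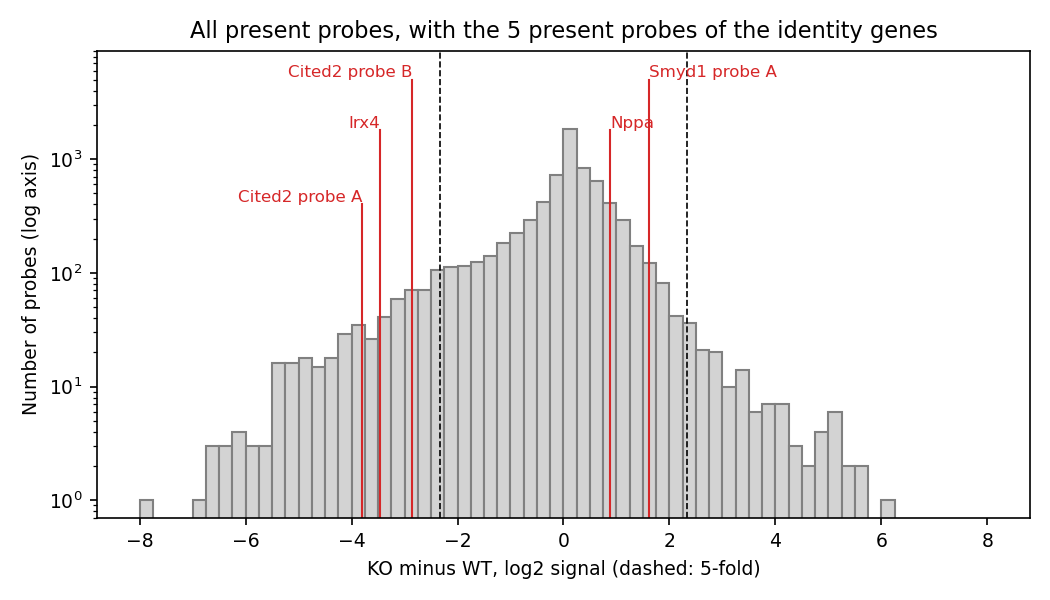
Histogram of the KO minus WT difference of mean log2 signal for all 7467 present probes (count on a log axis), with the 5 present probes of the identity genes as red lines and the 5-fold rule dashed. Irx4 and both Cited2 probes lie beyond the lower line, with 6.88% of present probes, and Nppa and Smyd1 lie between the lines.

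Smyd1 was detected in every cell with its probe A and had a higher mean in KO cells. Probe A lies at chr6:71165337-71165396 (mm9, minus strand). Probe B lies 46.7 kb toward the 5′ side at chr6:71212063-71212122.
Smyd1 probe A, first 30 bases: tgcttgtgtatctgtgtaggcatctctggg
Smyd1 probe B: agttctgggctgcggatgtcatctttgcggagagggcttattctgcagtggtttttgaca

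With probe A, the scaled signal of Smyd1 was 878, 304, 274 and 112 in WT cells 1 to 4. It was 1456, 432, 925 and 1208 in the KO cells, in the same order. All KO cells but cell 2 lay above all WT cells. As deposited, before scaling, KO cell 3 at 704 also lay below WT cell 1 at 751. The mean log2 signal was 8.23 ± 1.22 in the WT and 9.84 ± 0.77 in the KO cells (SD, n = 4 each). The difference of 1.61, or 3.04-fold, was larger than either SD and under the 5-fold rule. It exceeded the median of the probes detected in all cells by 1.45, and 11.9% of those probes were at least 2-fold higher in KO cells. It was 1.13 without WT cell 4, 2.12 without WT cell 1, 2.54 under quantile normalization and 0.80 when both probes were averaged. Probe B was at the floor in all cells and well above background in WT cell 3 alone, at a deposited signal of 8.58. The cDNA was primed from the poly(A) tail, and whether the distance of probe B from the 3′ end contributed was not tested.

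Myocd was detected in 0 of 8 cells, with deposited signals of 1.75 to 2.10 for its probe at chr11:64991930-64991989 (mm9, minus strand). The targets and partners of SRF and myocardin were readily detected, with 11 of 17 genes present and 10 detected in all cells. Of these 17, 1 gene was lower by 5-fold and 0 were higher, and the median difference was -0.12. The lower gene was Smtn, which encodes the smooth muscle protein smoothelin, at 8.49 ± 2.03 in WT and 5.82 ± 0.23 in KO cells. WT cell 1 was at the floor for Smtn, as were KO cells 3 and 4, so the groups overlapped. Csrp1, a LIM protein of the cytoskeleton, differed by 1.38 (11.60 ± 1.68 and 12.98 ± 0.41). The actins Actc1, Acta1 and Acta2 differed by 0.26, 0.36 and -0.22, and Tagln, Cnn1, Cnn2 and Csrp2 by -0.16, -0.87, -0.12 and -0.47. Each of these differences was smaller than the larger SD of its 2 genotypes, except that of Csrp2. Mylk was at the floor in every cell.

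Isl1, Tbx2 and Tbx3, which mark progenitors and non-chamber myocardium, were detected in 0 of 8 cells. The Isl1 probe, at chr13:117088774-117088833 (mm9, minus strand), is printed on 10 spots. Its spots read 1.74 to 14.3 as deposited, and 3 of the 10 spots were well above background in KO cell 1, fewer than needed to call the probe detected. The Tbx2 probe, at chr11:85655391-85655450, read 1.94 to 3.16, and the Tbx3 probe, at chr5:120134511-120134570, read 1.90 to 2.19. All 3 genes were thus at the floor in both genotypes. A transcript below the reach of single-cell amplification was not detectable here, so these values do not show that the genes were silent.

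Other progenitor genes were measured more often. Of 22 such genes, 6 were present and 7 were detected in 0 cells. Gata4, a zinc finger factor of heart progenitors and myocardium that the study named as lower on these arrays, was the 1 gene lower by 5-fold, and 0 were higher. It was at 1269, 1312, 12122 and 2560 in WT cells 1 to 4, and at 199 in KO cell 1, 1687 in KO cell 4 and the floor in KO cells 2 and 3, a difference of -3.98. Without KO cells 2 and 3 it was -2.21 and no longer reached 5-fold, as for Irx4 and Cited2. In that setting Furin, Cited1 and Smtn still reached it, at -3.91, -5.11 and -2.61. Over all 8 cells, Gata4, Furin and Cited1 were detected in every WT cell but not in every KO cell. They were thus present only through WT, where their means were high. Nkx2-5, which is kept from progenitors into myocardium, was detected in all cells and differed by 0.94 (13.21 ± 1.68 in WT and 14.15 ± 0.47 in KO cells). Its WT signals of 43452, 3092, 12154 and 4974 spread more widely than its KO signals of 13516, 16679, 29127 and 16725, and WT cell 1 was the highest, as for Nppa. Gata5 and Eya1 differed by 0.23 and 0.37, each less than either SD, and Fgf8 was above the floor in WT cell 1 alone, at 921. Of 14 genes of the atrioventricular canal and conduction system, 3 were present, 5 were detected in 0 cells and 0 passed the size rule. Id2, an inhibitor of bHLH factors, differed by -0.76 (9.08 ± 1.27 and 8.32 ± 1.56), and Msx2, a homeobox factor of the canal, was above the floor in KO cell 2 alone, at 91.9.

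**Figure D4:**
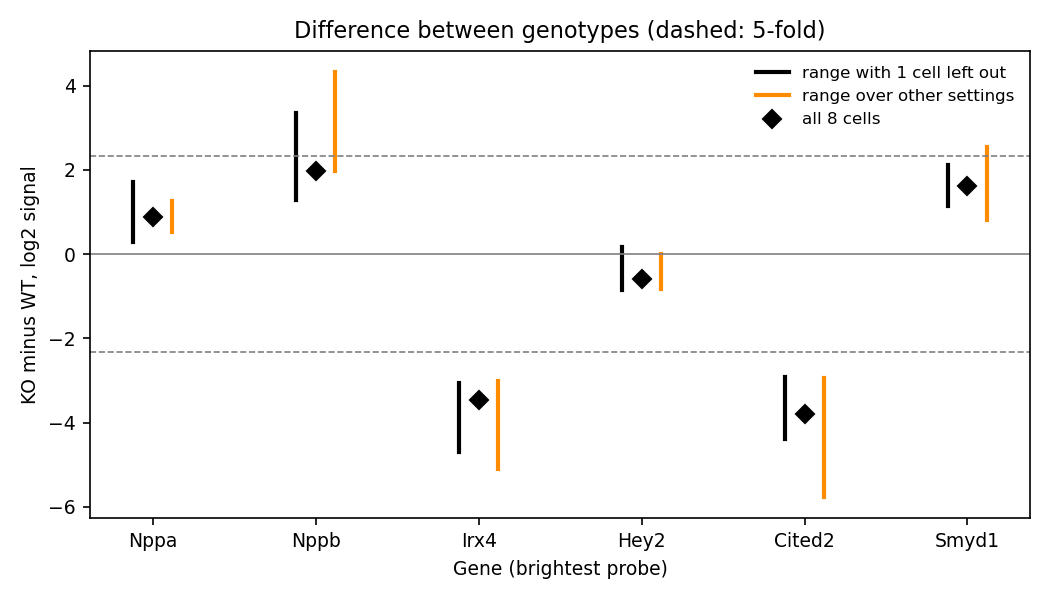
KO minus WT difference of mean log2 signal for the 6 detected genes, with all 8 cells (diamonds), over the 8 fits with 1 cell left out (black) and over other scalings, floors and summaries (orange), with the 5-fold rule dashed. Irx4 and Cited2 remain below the lower line, Nppa remains above 0, and Hey2 crosses 0. The fit without both KO cells 2 and 3 is not drawn.

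Counted by cell, the 10 genes did not separate the genotypes. WT cells 1 to 4 had 5, 4, 5 and 4 of them detected, and KO cells 1 to 4 had 5, 4, 3 and 6. The mean number was 4.5 ± 0.58 for WT and 4.5 ± 1.29 for KO cells (SD, n = 4 each). When a signal above the floor was required as well, the KO counts were 5, 3, 2 and 5, with a mean of 3.75 ± 1.5. KO cell 3, with 17.1% of probes detected, had the fewest. No KO cell was at WT level for both genes that were lower. KO cell 1 had Irx4 at 1575 with Cited2 at the floor by probe A, and KO cell 4 had Cited2 at 3149 with Irx4 at the floor. The Pearson r of Irx4 and Cited2 over the 8 cells was 0.36, and that of Nppa and Smyd1 was 0.80. Spearman rho was 0.425 for the former pair and 0.62 for the latter. Nppa and Smyd1 had r = -0.20 and -0.30 with Irx4, and rho of 0.02 and -0.15.

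For the members detected in at least 4 cells, the 2 genes of most similar pattern were taken from 4856 genes detected in at least 4 cells, by Pearson r over the 8 cells. For Nppa these were A430078G23Rik (0.97) and Cfap74 (0.95), and r was 0.85 and 0.87 without WT cells 1 and 4, which lay farthest from the median. For Nppb they were Ltbp4 and Stk36 (0.97 each), for Irx4 Pagr1a and Dnpep (0.98 each), for Cited2 Tmem164 (0.99) and Aarsd1 (0.98), and for Smyd1 Ftl1 and Sec61b (0.94 each). Without the 2 farthest cells, r remained 0.84 or more for each of these pairs. With so many genes and 8 cells that share slides and scaling, high values are found for many genes, as 7 (Irx4) to 27 (Cited2) genes had an r of at least 0.9.

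The promoters of 7 members were found in the RefSeq table, and those of Tbx2, Tbx3 and Myocd were not analysed here. The windows were searched on both strands for short motifs of cardiac factors and for 2 general motifs, an E-box and the TATA box. The NKX2-5 core, AAGTG, was found in Nppa, Cited2 and Smyd1, and in 40.7% of all 32817 promoters of the table. The GATA site, GATAA, was found in Nppa, Nppb and Isl1, and in 22.6% of all promoters. The TEAD site, GGAATG, was found in Nppb and Hey2, and in 12.6% of all promoters. The T-box half-site, GGTGTGA, was found in Nppa, at 250 to 244 bases before the start, and in 3.33% of all promoters. The E-box, CACGTG, was found in Cited2, and in 6.02% of all. The TATA box, TATAAA, was found in Nppa, Nppb and Smyd1, and in 12.4% of all. The CArG box that SRF binds was found in 0 of the 7, and in 1.47% of all. No 2 of these motifs overlapped in the promoters shown. Nppa and Nppb shared the GATA site and the TATA box, of which Isl1 had the GATA site and Smyd1 the TATA box. Cited2 shared the NKX2-5 core with Nppa and Smyd1, and Irx4 held none of the motifs. These matches describe letters in a window, and no binding was measured.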

How the data were processed

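The data were one-colour Agilent arrays of amplified cDNA, 1 per cell, from 4 WT and 4 KO cells. Per the file headers, the authors' scanner output came from Feature Extraction 12.0.2.2 with probe positions in mm9. The deposited intensity values used were the background-corrected processed signal and, for 1 alternative, the spot mean and background median. The authors state a floor of 50 and scaling to the 50th percentile. Here control spots and outlier spots (146 to 220 per array) were left out, 0 spots were saturated, and the log2 signals of a probe's spots were averaged. Each array was scaled to its 50th percentile over the 5301 probes well above background on all arrays (shifts of -0.76 to 0.68 on the log2 scale), and signals below the floor of 50 were then replaced by it. Values at the floor have no order, and folds against it depend on it. A probe was detected where at least 50% of its spots were well above background. Where a gene had 2 probes, the one with the higher mean signal stood for it.

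No test was made. Differences are KO minus WT means of log2 signal, read against the 5-fold rule and beside the share of all present probes past it. The number of arrays limits the precision, and replicate spots measure scanning and printing, not cells. For a gene detected in 0 KO cells, the fold is a lower bound, taken on each array against the floor or, if higher, the weakest signal that was well above background. All members were named with all probes. Of each list, genes past the rule or detected in all cells were named, and the 2 genes most like each member detected in at least 4 cells. The members and lists were chosen with earlier results of these data known. Gene names are those of the array, and promoters those of RefSeq, GRCm38.p6, searched for fixed motifs. Annotation of exons, introns and UTRs was not used here. The alternatives were other scalings, quantile normalization, normexp (offset 50, limma 3.58.1, R 4.3.3), no floor, other filters and detection flags, the median of cells, a 2-fold rule, the mean of probes and leaving out each cell. Leaving out KO cells 2 and 3 together and requiring a signal above the floor were added after the data were seen. Scripts ran in Python 3.11.15 with pandas 2.3.3 and were tested on simulated data.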

Additional observations from a re-analysis of the deposited data

Results flagged for a closer look

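Of 16 sets of 4 cells, 14 of member signals and 2 of members detected per cell, 5 had a cell set apart from the other 3 by more of the whole range than Dixon's limit for 4 values allows. The gap was 1 of the range in each, because the other 3 cells lay at the floor of 50. Among values without ties, chance sets apart about 1 in 20 such sets, a rate that does not apply to cells tied at a floor. These were WT cell 1 for Nppb (2251), KO cell 1 for Irx4 (1575), WT cell 3 for Hey2 (410), KO cell 4 for Hey2 (78.4) and KO cell 4 for Cited2 probe A (3149).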

How the results depend on the processing

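The count of 3 member probes lower by 5-fold fell to 0 when detection in all 8 cells was required, where Irx4 and Cited2 cannot enter, and 0 without KO cells 2 and 3. Leaving out 1 cell gave 2 to 3, with 2 without KO cell 2 or KO cell 3. The count of 0 higher was 1 under quantile normalization and the 2-fold rule (Smyd1 in both), 1 without KO cells 2 and 3 (Nppb), and 0 to 1 with 1 cell left out (1 without KO cell 3, Nppb). In both cases Nppb was present only through the KO cells that remained. The median difference stayed at 0 with any 1 cell left out, and the difference in members detected per cell ranged from -0.5 to 0.5. The signs for Nppa, Nppb, Irx4, Cited2 and Smyd1 held under the 17 alternatives run for each. The median difference of probes detected in all cells was 0.15, against 0.00 with scaling over all probes, 0.05 with the 75th percentile, 0.28 with normexp, 0.32 with quantile normalization and 0.34 without the floor. Beyond it, over these scalings and the deposited signal, Nppa differed by 0.34 to 0.73 and Smyd1 by 1.11 to 2.22. Over all probes, the 514 lower and 131 higher calls became 90 and 47 with detection in all cells required, 1010 and 278 with no filter, 874 and 240 without the floor, and 1216 and 854 under the 2-fold rule. They were 860 and 208 with presence in 3 of 4 cells, 404 and 190 under quantile normalization and 919 and 120 without WT cell 1, and the higher calls were 248, 236 and 203 without KO cells 2, 3 and 4 in turn. Without KO cells 2 and 3 they were 575 and 559. No paired analysis was possible because cells of the 2 genotypes shared only a number and no result came from a test.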
